A study of Mus musculus with 2 samples.

Results

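The membrane-bound mucins examined here are Muc1, Muc4, Muc13, Muc15, Muc16 and Muc20, a list of 6 transmembrane mucin genes. They were chosen by name, with earlier results of these data known. Probes were matched to them through the RefSeq accession that the array files give for each probe. Of the 6 genes, 5 had at least 1 named probe, with 7 probes in all among 55681 non-control probes, against 20660 named genes in the whole series. No probe carried a RefSeq accession of Muc16, so Muc16 was not analysed here. Another 28446 probes have no gene name here.

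Mouse lung epithelial cells were profiled by hybridising labelled RNA to Agilent 1-colour arrays of short DNA probes. There was 1 array for cells labelled Mob1DKO and 1 for wild-type (WT) cells. Both samples came from C57BL/6 mice aged 10 weeks. The name Mob1DKO is not spelled out there and is taken here from background knowledge to mean a double knockout of Mob1a and Mob1b. These genes encode adaptors that bind LATS kinases in the Hippo pathway. The Cre driver or promoter behind the deletion, any treatment that induced it, and whether animals were pooled are not given in the sources used here. With 1 array per group there is no replicate check and no p-value, so the precision of every value is limited by the count of arrays.

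Mucins are large glycoproteins whose extracellular part carries dense O-linked sugar chains. Secreted mucins such as Muc5ac and Muc5b form the mucus gel of the airway, whereas membrane-bound mucins are anchored in the apical membrane by a transmembrane segment. There they make up much of the layer that covers cilia and microvilli beneath the mucus, and their cytoplasmic tails can take part in signalling. Many membrane-bound mucins are cleaved during synthesis, and their extracellular part can be shed by membrane proteases.

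The start regions of Muc1, Muc4 and Muc20 are shown because the brightest probes of these 3 genes differed in the same direction between the arrays, and because TEAD factors are the DNA-binding partners of the Hippo effectors YAP and TAZ. Each window runs from 250 bases before to 50 bases after a RefSeq start site on GRCm38.p6 and is written 5′ to 3′ on the gene's strand. Capitals mark matches on either strand to the TEAD motif GGAATG, the NKX2-1 motif CACTTGA or the forkhead motif TGTTTAC, which do not overlap one another here. The 3 windows are chr3:89228806-89229105 on the plus strand for Muc1, chr16:32735636-32735935 on the plus strand for Muc4 and chr16:32797386-32797685 on the minus strand for Muc20.
Muc1: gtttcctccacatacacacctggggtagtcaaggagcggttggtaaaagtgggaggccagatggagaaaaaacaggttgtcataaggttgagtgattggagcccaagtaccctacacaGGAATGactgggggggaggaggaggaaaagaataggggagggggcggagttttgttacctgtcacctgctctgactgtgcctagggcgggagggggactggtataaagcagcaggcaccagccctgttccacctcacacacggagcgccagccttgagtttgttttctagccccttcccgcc
Muc4: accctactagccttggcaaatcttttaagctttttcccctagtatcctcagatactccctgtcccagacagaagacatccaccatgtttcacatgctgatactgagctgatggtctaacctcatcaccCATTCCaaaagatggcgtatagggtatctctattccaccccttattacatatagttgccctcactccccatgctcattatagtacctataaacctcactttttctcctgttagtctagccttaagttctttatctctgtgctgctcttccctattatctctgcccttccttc
Muc20: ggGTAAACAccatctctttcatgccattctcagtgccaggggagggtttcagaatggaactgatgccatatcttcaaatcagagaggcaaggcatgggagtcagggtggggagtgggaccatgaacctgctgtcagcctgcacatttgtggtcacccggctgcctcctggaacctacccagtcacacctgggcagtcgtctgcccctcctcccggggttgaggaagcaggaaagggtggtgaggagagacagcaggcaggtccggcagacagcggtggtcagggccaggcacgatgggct

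The Muc1 window held GGAATG once, beginning at base 119, and the Muc4 window held it once on the opposite strand, beginning at base 129. The Muc20 window held no match to the TEAD motif and 1 match to the forkhead motif on the opposite strand, beginning at base 3. Among all 32851 RefSeq windows of this length, 14.7% held GGAATG, 3.06% held CACTTGA and 3.65% held TGTTTAC. Of the other members, Muc13 had 2 windows and Muc16 had 1, none with GGAATG, and 1 Muc13 window held CACTTGA on the opposite strand. Muc15 is named only. The search also covered TATAAA and the STAT motif TTCNNNGAA, which are not capitalised. TATAAA, held by 13.6% of all windows, began at base 220 in the Muc1 window and at base 215 in the Muc4 window. The STAT motif, held by 8.3% of all windows, matched in 1 Muc13 window and in none of those shown. The motifs were chosen after matches in these windows had been seen, and a match is a run of letters, not a measured binding site.

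A level is log2 of the scanner software's processed signal after division by the 75th percentile of its own array, and every difference runs Mob1DKO minus WT. That percentile was 291 in Mob1DKO and 155 in WT cells, a 1.88-fold gap that the scaling removes. The 8 added spike-in transcripts went the other way, with a median WT signal 2.50-fold that of Mob1DKO, so the values say nothing about RNA per cell. As a check of the labels, the 2 Mob1b probes differed by −2.0 and −2.70, while the single Mob1a probe differed by 0.07. Where these probes lie relative to a deleted part was not looked up here. Xist differed by −2.29 and the Y-linked Eif2s3y was at least 29.6-fold higher on the Mob1DKO array, so the sex of the animals and the genotype cannot be told apart. Lung epithelial markers were bright on both arrays. Epcam had levels of 2.39 in Mob1DKO and 2.20 in WT cells, Cdh1 had levels of 5.66 in Mob1DKO and 5.56 in WT cells, and of 5 such markers none passed the 2-fold rule.

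Relative to the other genes of each array, Muc1, Muc4 and Muc20 had modestly lower levels in Mob1DKO than in WT cells by their brightest probes, and no member passed a 2-fold rule. Muc13 had a modestly higher level in Mob1DKO cells, with a sign that turned under another treatment of the spot signal, and Muc15 was not measurable. The rule asks for a log2 difference of at least 1 in size with the brighter array well above background. Each member probe was printed at 1 spot per array, so a value has no spot replicate of its own. Probes printed at 10 or more spots gave the technical SD of a single-spot difference, which was 0.089 at or above the 75th percentile and 0.36 below it. The scanner software's own signal errors gave a wider SD of 0.20 for the brightest mucin spots. Neither error holds the difference between animals or RNA preparations.

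Muc1 encodes a mucin of the apical surface of alveolar type 2 and airway cells, whose cytoplasmic tail binds beta-catenin and kinases. Its probe A_51_P467346 (NM_013605) had a processed signal of 1796 ± 180 in Mob1DKO and 1196 ± 120 in WT cells, where the error is the software's for 1 spot. After scaling, the Muc1 level was 2.62 in Mob1DKO and 2.95 in WT cells, a difference of −0.32, or 1.25-fold lower in Mob1DKO. The brighter raw spot thus became the lower scaled value, because most probes were brighter on that array. The difference was larger than both technical SDs, and 14.8% of named probes well above background on both arrays had a lower one. Under a model-based background correction (normexp) of the median spot signal the Muc1 difference was −0.17, which is smaller than the signal-error SD of 0.20.

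Muc4 encodes a long mucin of the ciliated airway surface that carries EGF-like domains and binds the receptor ERBB2. Its brighter probe A_55_P2025687 had processed signals of 5437 ± 544 in Mob1DKO and 4008 ± 401 in WT cells. The scaled levels were 4.22 in Mob1DKO and 4.69 in WT cells, a difference of −0.47, or 1.39-fold lower. The second Muc4 probe, A_55_P2029603, matched the same accession (NM_080457) and was well above background on both arrays. It had levels of −0.75 in Mob1DKO and −0.61 in WT cells, a difference of −0.14 that was smaller than its technical SD of 0.36. The 2 probes shared a sign, and the gap between their differences was smaller than the technical SD of the fainter probe.

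Muc20 encodes a small membrane mucin that in human cells binds the HGF receptor MET. Its brighter probe A_51_P211506 (NM_146071) had processed signals of 1972 ± 197 in Mob1DKO and 1539 ± 154 in WT cells. The scaled levels were 2.76 in Mob1DKO and 3.31 in WT cells, a difference of −0.55, or 1.47-fold lower. Among the members well above background this was the largest decrease at the 75th percentile scaling. With normexp, which starts from the median instead of the processed signal, Muc20 differed by −0.27 and Muc4 by −0.45. The order of these genes thus depends on the signal used, and the part of background in it was not tested. The Mob1DKO spot carried 1 outlier flag for its local background area and none for the spot itself. The second Muc20 probe, A_55_P2164744 (NM_001145874), was faint, with levels of −2.68 in Mob1DKO and −2.36 in WT cells. Its difference of −0.31 had the same sign as that of the brighter probe and lay within its technical SD of 0.36.

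Muc13 encodes a mucin with EGF-like domains that is best known from the gut epithelium. Its single probe A_55_P1971840 (NM_010739) was faint, with processed signals of 83.5 ± 9.3 in Mob1DKO and 30.1 ± 4.4 in WT cells. The median spot brightness before background subtraction was 148 in Mob1DKO and 101 in WT cells, over local backgrounds of 67.5 in Mob1DKO and 68.0 in WT cells. The scaled levels were −1.80 in Mob1DKO and −2.36 in WT cells, a difference of 0.56, or 1.48-fold higher in Mob1DKO. This exceeded its technical SD of 0.36, but with normexp the sign turned, at −0.098. No direction for Muc13 can therefore be given.

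Muc15, which encodes a heavily glycosylated membrane protein of several epithelia, was not well above background in Mob1DKO or WT cells. Its probe A_55_P1971834 (NM_172979) had processed signals of 3.88 ± 3.90 in Mob1DKO and 4.21 ± 3.03 in WT cells, where the error was about as large as the signal. The raw median brightness was 61.0 in Mob1DKO and 77.0 in WT cells, against local backgrounds of 65.0 in Mob1DKO and 67.0 in WT cells. No fold is given for it.

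**Figure D1:**
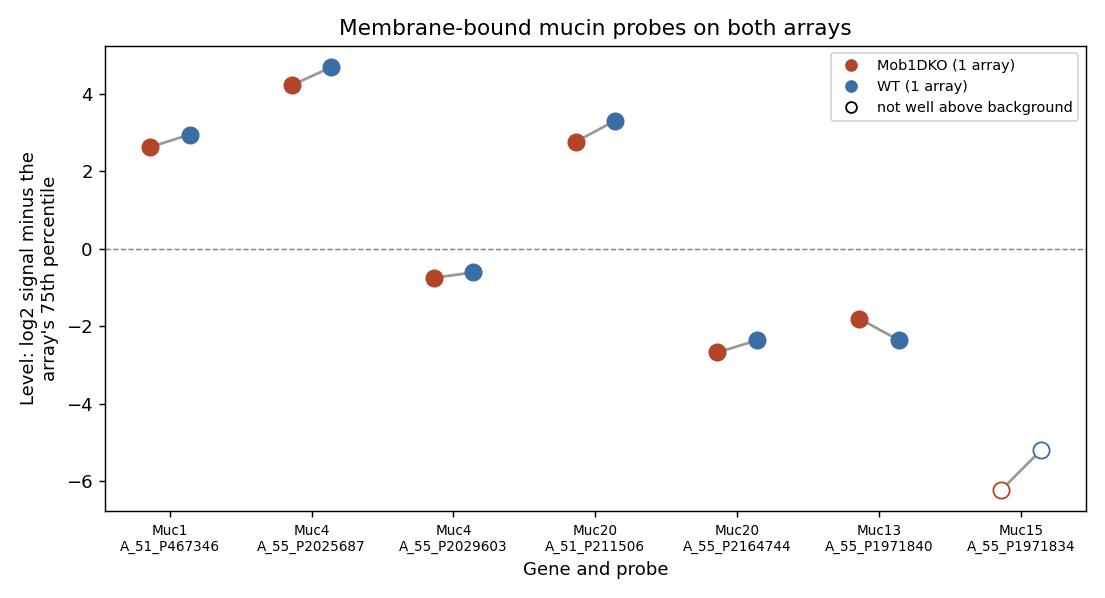
Level of each membrane-bound mucin probe (vertical axis, log2 signal minus the array's 75th percentile, dashed at 0) in Mob1DKO (red, left) and WT cells (blue, right), with 1 spot per array and a grey line joining each pair. The probes of Muc1, Muc4 and Muc20 lie lower on the Mob1DKO array, Muc13 lies higher there (a sign that turns under normexp), and the open circles of Muc15 are not well above background.

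None of the 4 members measured on both arrays was called, whereas 6.70% of 15099 measured genes passed the 2-fold rule in either direction, where a measured gene is well above background on 1 array or both. These members belong to the 13866 genes with such signal on both arrays, of which 2.68% were called, 1.25% as higher and 1.43% as lower. A count of 0 of 4 members is near that background. The median difference of the 4 members was −0.40, with 3 below 0 and 1 above, against a median of 0.011 over all genes measured on both arrays. The central range of those genes ran from −0.18 (25th percentile) to 0.19 (75th percentile), and from −0.60 (5th percentile) to 0.56 (95th percentile). Muc1, Muc4, Muc20 and Muc13 all lay outside the first range and inside the second, with Muc13 at its upper edge. Among 3627 genes with a mean level of 2 to 5, a range set after the mucin values were seen because it holds the bright probes of Muc1, Muc4 and Muc20, the 5th percentile was −0.40. In this range Muc4 and Muc20 lay below the 5th percentile and Muc1 at −0.32 lay above it. Within this range 0.744% of genes passed the 2-fold rule.

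Local differences across the slide were small around these spots in the processed signal. That signal holds adjustments by the software beyond background subtraction. For the brighter Muc4 spot it was 5437 against 4590 after background subtraction alone in Mob1DKO cells, and 4008 against 3745 in WT cells. Slide differences before these adjustments were not examined. The spots well above background within 8 rows and columns of each member spot, between 90 and 150 of them, had median differences from −0.053 to 0.068. No member spot carried an outlier flag for the spot itself, and no spot on either array was saturated.

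The gel-forming secreted mucins Muc5b and Muc5ac differed by more than the membrane-bound ones. Muc5b, the main gel-forming mucin of the mouse airway, had processed signals of 16323 in Mob1DKO and 29294 in WT cells. Its levels were 5.81 in Mob1DKO and 7.56 in WT cells, a difference of −1.75, or 3.37-fold lower. Muc5ac, the gel-forming mucin of goblet cells that is induced in inflamed airways, had levels of −0.79 in Mob1DKO and 0.48 in WT cells, a difference of −1.27, or 2.40-fold lower. Unlike the bright membrane-bound mucins, both had a lower raw signal on the Mob1DKO array. Both stayed past 2-fold under the model-based background correction, at −1.51 for Muc5b and −1.12 for Muc5ac. Every member measured on both arrays, from −0.55 (Muc20) to 0.56 (Muc13), lay nearer to 0 than either gel-forming mucin.

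The rest of the secreted list did not follow Muc5ac and Muc5b. Ovgp1, an oviduct glycoprotein listed with the mucins, had levels of 0.10 in Mob1DKO and −0.01 in WT cells, a difference of 0.11. Prol1, listed as Muc10 and known from salivary glands, was well above background in Mob1DKO cells only and at least 2.14-fold higher there. Its difference shrank to 0.23 under the model-based background correction. The probe of Smgc, the current symbol to which Muc19 maps, was not well above background in Mob1DKO or WT cells, and no probe was named Muc2, Muc6 or Muc7. Of 4 measured secreted genes, 2 were called lower and 1 higher, against 2.91% lower and 3.79% higher among all measured genes. The list had a median of −0.58 against −0.40 for the membrane-bound mucins. This gap of 0.18 between lists of 4 genes depends on which secreted genes are counted. Over the 3 secreted genes measured on both arrays the median was −1.27 and the gap 0.87, and with no filter on background the gap turned to −0.40. The contrast therefore holds for Muc5ac and Muc5b as named genes and not for the secreted list as a whole.

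**Figure D2:**
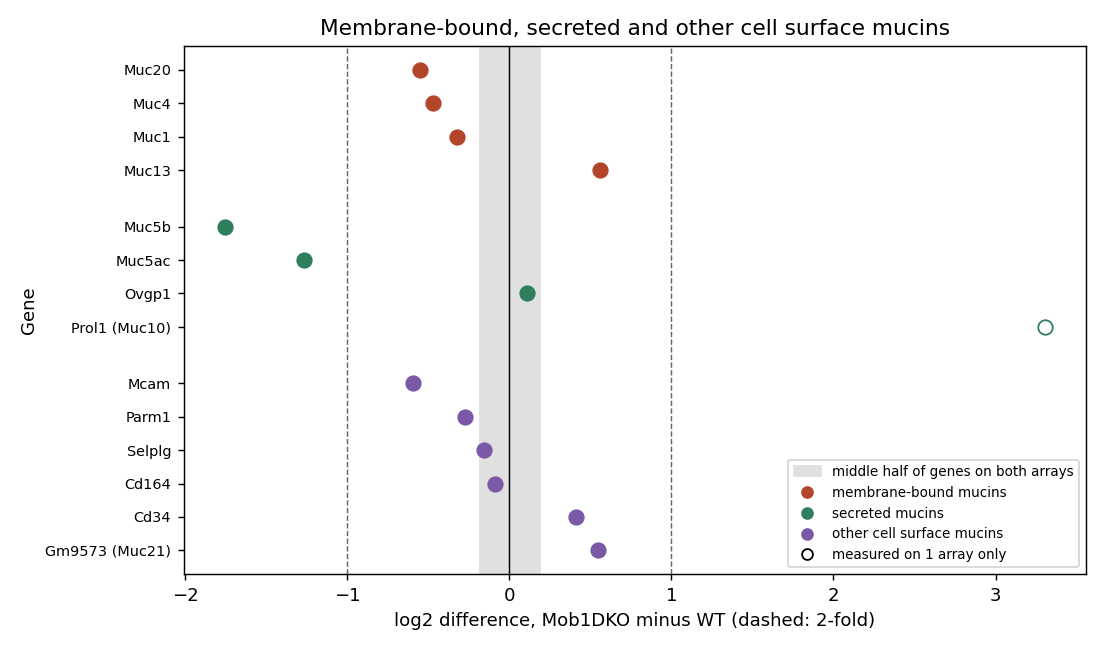
Difference of each measured mucin gene (horizontal axis, log2 Mob1DKO minus WT), with 1 point per gene, for membrane-bound (red), secreted (green) and other cell surface mucins (purple). The grey band runs from the 25th to the 75th percentile of genes on both arrays. Muc5b and Muc5ac pass the dashed 2-fold line on the left and all red points lie inside both lines. The open point of Prol1 is its measured difference, for which at least 2.14-fold is the bound.

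Other cell surface mucins and sialomucins, from a list that holds no member, were not called in either direction. Of 15 listed genes 6 were measured, 4 with a difference below 0 and 2 above, and their median was −0.12. Gm9573, the current symbol to which the epithelial mucin Muc21 maps, had levels of −1.28 in Mob1DKO and −1.83 in WT cells, a difference of 0.55 that shrank to 0.12 under the model-based background correction. The median of the list moved to 0.017 under that correction. Mcam, an adhesion molecule of vessel-associated cells also called Muc18, differed by −0.59, and its second probe was not well above background in Mob1DKO or WT cells. Cd164, a widely expressed sialomucin of endosomes and the cell surface, differed by −0.09. Parm1 differed by −0.27, the leukocyte selectin ligand Selplg by −0.15 and Cd34, a sialomucin of vessels and progenitor cells, by 0.41. Emcn, Podxl, Spn and Mucl2 were not well above background in Mob1DKO or WT cells.

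Genes that bind membrane-bound mucins or act downstream lay on both sides of 0. Of 18 listed partners, 15 were measured, 9 above 0 and 6 below, with a median of 0.058. The 1 call among these 15 genes is near the 6.70% over all measured genes. The called gene was the kinase Lyn, which was well above background in Mob1DKO cells only, and its bound did not exceed 1, so no fold is given. Under the model-based background correction Lyn was not called, at −0.26. Lgals3, a galectin that binds sugar chains of mucins, had levels of 8.36 in Mob1DKO and 8.31 in WT cells. Msln, the mesothelial protein that binds MUC16 in human cells, differed by −0.25, or by −0.00094 under that correction. Of the receptors, which are named here after their values were seen, Met was at 1.04 in Mob1DKO and 1.66 in WT cells, a difference of −0.62, which is below the 5th percentile of −0.60 over genes measured on both arrays. Under that correction the Met difference was −0.44. The MUC4 partner Erbb2 differed by 0.19 and Egfr by 0.12. The faint Erbb3 differed by 0.35, with a sign that turned to −0.13 under that correction, so no direction is given for it. Of 3 Egfr probes, the other 2 differed by −0.12 and −0.24.

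Proteases that can shed mucins and proteins that link their tails to actin had no called gene. Of 15 listed sheddases and related genes, 13 were measured, with a median of 0.11. Timp3, an inhibitor of ADAM17, differed by 0.23, and Rhbdf1, which escorts ADAM17 to the surface, by 0.17. Adam17, named after its values were seen, differed by 0.43 and its second probe by 0.45, both faint, and the brighter of them by 0.023 under the model-based background correction. Of 12 listed linkers, 11 were measured, with a median of −0.0023. Ezr, which encodes ezrin of the microvillus cortex, differed by −0.02, and the actin cross-linker Actn4 by −0.02.

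Enzymes of O-glycosylation, which build the sugar chains of both mucin classes, included calls in both directions. Of 25 listed genes, 23 were measured, 3 were called higher and 2 lower, against 3.79% higher and 2.91% lower among all measured genes, and the median was 0.12. Galnt10, a transferase that starts O-glycans, had levels of 0.50 in Mob1DKO and −1.58 in WT cells, a difference of 2.07, and stayed past 2-fold under the model-based background correction at 1.22. B3gnt3, which extends O-glycans, had levels of −0.76 in Mob1DKO and −2.76 in WT cells, a difference of 2.0 that shrank to 0.45 under that correction. Galnt14 was well above background in Mob1DKO cells only, with a bound under 1. The sialyltransferase St8sia6 differed by −1.16 and the branching enzyme Gcnt1 by −1.07, and both fell short of 2-fold under that correction, at −0.87 and −0.90. Gcnt1, the smallest of the 5 calls, was named after its value was seen. The brightest members, St6galnac1 and St3gal1, which add sialic acid to O-glycans, differed by 0.61 and 0.42. Of the 5 calls, Galnt10 alone passed the 2-fold rule under both background treatments. The model-based correction adds an offset of 50 to each signal, which draws faint signals together. The WT processed signals of B3gnt3 (22.8) and Galnt14 (3.09) lay below that offset. A call lost under this correction therefore cannot be read as a result about background, and the calls are not ranked by it.

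Among 17 listed regulators of mucin genes, 13 were measured and 1 was called lower, against 2.91% of all measured genes, with a median of 0.072. The called gene was Spdef, a factor of goblet cell differentiation, with levels of 0.51 in Mob1DKO and 1.82 in WT cells and a difference of −1.31, or −0.99 under the model-based background correction. The bright factors Foxa1 and Klf4 differed by 0.08 and −0.03. Nkx2-1, the lung lineage factor, and Stat3 were named after their values were seen and differed by −0.01 and 0.04.

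**Figure D3:**
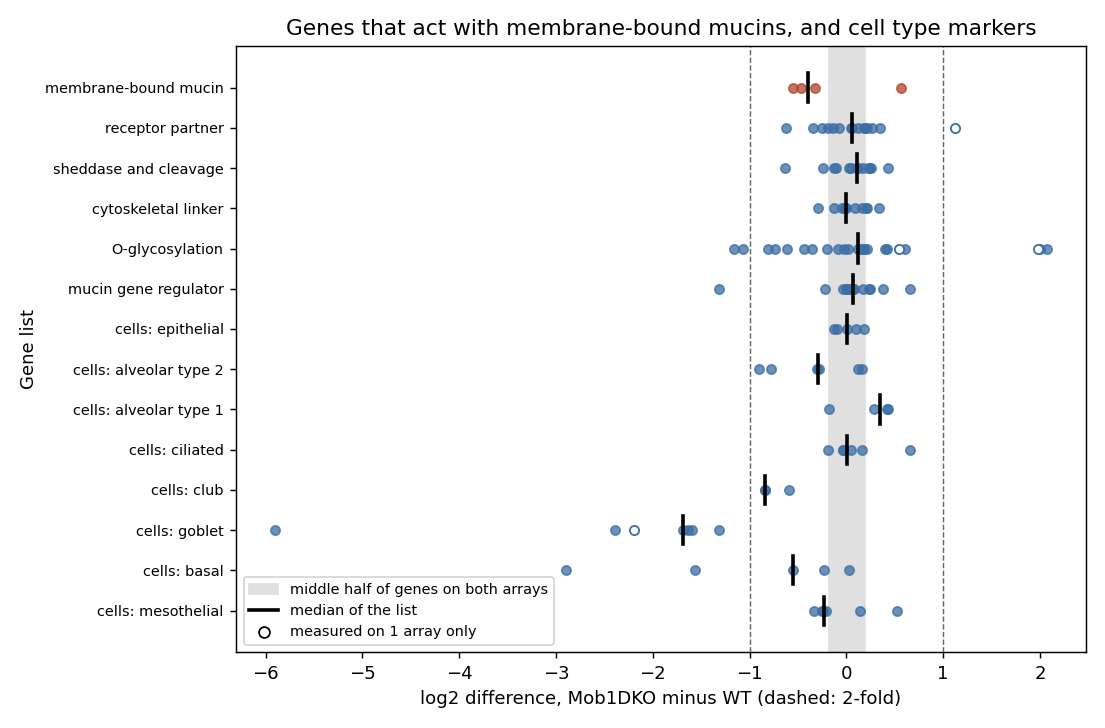
Difference of each measured gene (horizontal axis, log2 Mob1DKO minus WT) in the membrane-bound mucin list (red), in lists of genes that act with these mucins and in cell type marker lists (blue), with the median of each list as a black bar. Open points were measured on 1 array. The bar of the membrane-bound mucins lies at −0.40, between those of the receptor partners at 0.058 and the goblet markers at −1.69.

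Markers of the cell types that carry these mucins are given as values, since in bulk RNA fewer cells of a type and less RNA per cell cannot be told apart. Of 8 goblet markers, 7 were measured and all 7 were called lower, against 2.91% of all measured genes, with a median of −1.69 and a log2 summed level of 6.29 in Mob1DKO and 8.28 in WT cells. Itln1, 1 of the 7, was well above background in WT cells only and at least 3.95-fold lower in Mob1DKO. Under the model-based background correction 6 of the 7 were called lower, and the seventh was Spdef at −0.99. All 3 measured club cell markers lay below 0 with none called, a median of −0.84 and summed levels of 11.9 in Mob1DKO and 12.7 in WT cells. Their median was −0.53 with loess normalization, which fits the difference between arrays along the level. The 6 ciliated markers had a median of 0.0073, none called, and summed levels of 6.98 in Mob1DKO and 6.98 in WT cells. The 6 alveolar type 2 markers had a median of −0.30, none called, and summed levels of 11.7 in Mob1DKO and 12.3 in WT cells, and their median was −0.064 with loess normalization. The 4 measured alveolar type 1 markers had a median of 0.35. Of 5 basal markers 2 were called lower, against 2.91% of all measured genes, with a median of −0.55. The brightest of them, Trp63, was not called, at −0.23. Its second probe was well above background in WT cells only, with levels of −4.98 in Mob1DKO and −1.63 in WT cells. The red cell list had the median farthest from 0 among the cell type lists, at −3.51, with summed levels of 0.38 in Mob1DKO and 3.80 in WT cells. All 4 measured genes of this list were called lower, against 2.91% of all measured genes. Of these 4 globin genes, Hba-a1 and Hba-a2 were well above background on both arrays, at −3.10 and −3.42. Hbb-bs and Hbb-bt were well above background in WT cells only and at least 3.23-fold and 19.4-fold lower in Mob1DKO. The 6 mesothelial markers had a median of −0.23 with none called. The 2 measured endothelial markers had a median of −0.24 and the 4 fibroblast markers a median of 0.078, with none called in either list. Of 4 leukocyte markers Coro1a alone was above background, and Ptprc, Cd52 and Laptm5 were not well above background in Mob1DKO or WT cells. The part of any of these cell types in the mucin values was not tested.

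Muc4 and Muc20 lie side by side on chromosome 16, on opposite strands, and their spans overlap in the RefSeq gene table. Muc13 lies on the same chromosome. The position of each probe relative to the overlap was not looked up here. The nearest measured genes beside this pair were not called. Tnk2 had levels of 4.44 in Mob1DKO and 4.52 in WT cells, a difference of −0.08, Tfrc differed by 0.19 and Rubcn by 0.41. Beside Muc1 on chromosome 3, Mtx1, Thbs3, Trim46 and Krtcap2 differed by −0.27, 0.24, −0.02 and −0.16. Beside Muc13, Slc12a8 differed by −0.48, Itgb5 by −0.16 and Umps by 0.27. Slc5a12 beside Muc15 had signal well above background in Mob1DKO cells only, with levels of −2.43 in Mob1DKO and −3.36 in WT cells and a difference of 0.92. Smbd1 beside Muc20, Heg1 beside Muc13, Ano3 and A26c3 beside Muc15, and Zfp558, Mbd3l1, Olfr24 and Olfr828 beside Muc16 were not measured. Over the 12 measured neighbours of all members, other than the members themselves, the median was 0.083 and 1 was called. That gene, the olfactory receptor Olfr1275 beside Muc15, was measured on the Mob1DKO array alone. A count of 1 among 12 neighbours is near the 6.70% called over all measured genes.

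The sign of the differences relative to the median of all genes was examined under the settings that change a gene's own values, since a scaling that shifts all genes alike cannot move it. For Muc1 and Muc13, with a single probe each, there were 4 such settings among 13 alternatives (quantile and loess normalization, the model-based background correction and the deposited value table). For Muc4 and Muc20 there were 6, with 2 averages over probes added. Muc1 stayed below the median under its 4, from −0.36 to −0.17, and Muc4 and Muc20 under their 6, from −0.47 to −0.32 for Muc4 and from −0.59 to −0.27 for Muc20. Muc13 stayed above it under 3, up to 0.55, and lay below it at −0.098 under the model-based background correction. Without scaling all 4 were brighter on the Mob1DKO array, with raw ratios of 1.50 for Muc1, 1.36 for Muc4, 1.28 for Muc20 and 2.77 for Muc13 at their brightest probes. The directions given here are therefore relative to the other genes of the same array.

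**Figure D4:**
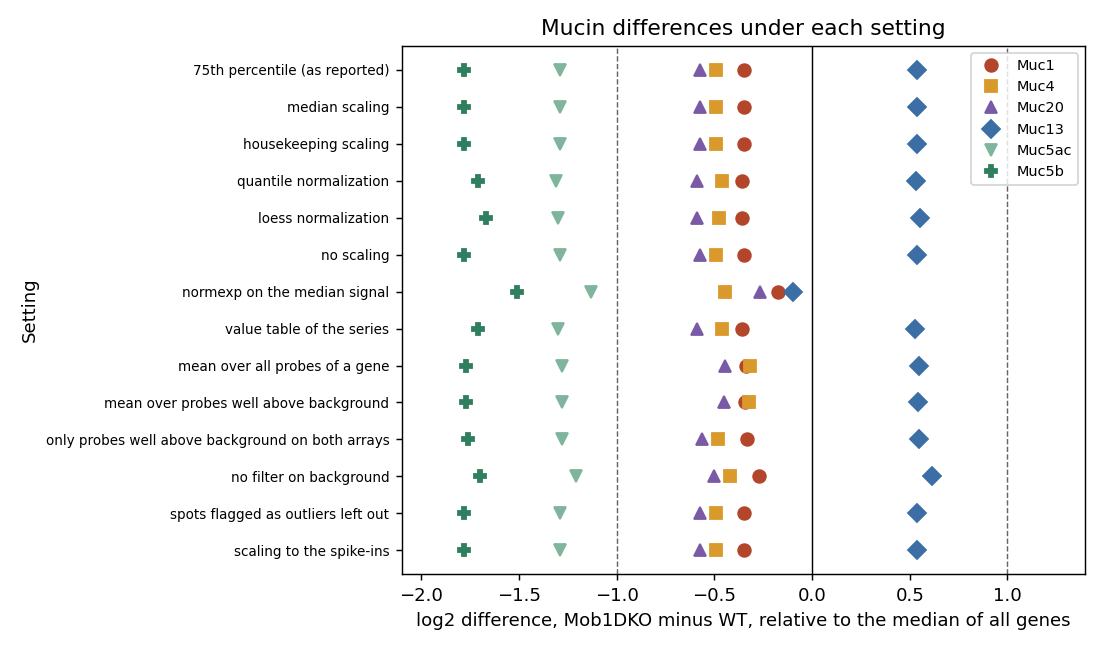
Difference relative to the median of all genes (horizontal axis, log2 Mob1DKO minus WT) of 4 membrane-bound and 2 secreted mucins, with 1 row of points for each setting (vertical axis) and the 75th percentile scaling on top. Muc1, Muc4 and Muc20 lie between −0.59 and −0.17 in every row, Muc5b and Muc5ac lie beyond −1, and Muc13 crosses 0 under normexp.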

How the data were processed

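Lung epithelial RNA of 1 Mob1DKO and 1 WT sample was amplified and hybridised, with Cy3 as the dye, to 1-colour Agilent arrays, per the labels' protocols. The deposited scanner files give intensity per spot, with background subtracted and no scaling between arrays. The processed signal used here also holds further adjustments by the software. Per the file headers the software was Feature Extraction 10.7.1.1 with a grid on mm9, while version 9.5.1.1 stands in the submitters' processing notes. How the intensity values of the deposited value table were made is not stated in any label or header used here. The flags used are the deposited ones of the scanner software, per the file headers. Groups came from the title (Mob1DKO) and the source name (WT).

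Non-control spots of a probe were averaged (Python 3.11.15, pandas 2.3.3), the 75th percentile of the array was removed on the log2 scale, and probes were named through RefSeq accessions in a gene table on GRCm38.p6. That table gave names and neighbours, and the start regions come from RefSeq on the same build. Of 55681 probes 27235 were named. For a gene with several probes the brightest with signal well above background on 1 array or both was used. A fold against an array without such signal is a bound, taken against the lowest level well above background there. No test was run, since a single array in each group gives no residual degrees of freedom.

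Alternatives were other scalings (median, housekeeping genes, quantile, loess with span 0.3, none, spike-ins), normexp with offset 50 (limma 3.58.1), the deposited value table, and other rules for probes, background and flagged spots. The files used hold no mean spot signal, so normexp ran on the median signal. The members and lists were chosen with earlier results of these data known. Genes named are all members, all measured mucins, the 2 brightest and up to 4 called genes of each companion list, and the 2 nearest protein-coding neighbours on each side of each member. The cell type lists are given mainly by counts and medians, although the rule also covered their genes. Epcam and Cdh1 were named outside the rule, as the brightest epithelial markers were keratins. Other names from the companion lists are said to be chosen after their values were seen.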

Additional observations from a re-analysis of the deposited data

How the results depend on the processing

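No paired analysis was possible because each group holds 1 array. Of the membrane-bound mucins, 0 were called at 2-fold under every setting but 3, with 1 called without scaling (Muc13), 1 without a filter on background (Muc15, which is not measured otherwise) and 4 with scaling to the spike-ins. Over all genes, 6323 of 15099 were called without scaling, 2009 of 20660 without that filter and 14795 of 15099 with the spike-ins. These member counts are therefore not read as a result about the mucins. The spike-in scaling was chosen after seeing the data. Settings that move all genes alike moved the mucins with them. The median difference of the membrane-bound mucins was −0.397 as reported, −0.29 with housekeeping scaling, 0.513 without scaling, 1.83 with the spike-ins and −0.218 with normexp. That of the secreted mucins was −0.577 as reported, −0.47 with housekeeping scaling, 0.333 without scaling, 1.65 with the spike-ins, −1.27 over probes well above background on both arrays and −0.0695 without a filter on background. The gap between these medians was 0.18 as reported, 0.276 with normexp, 0.868 over probes well above background on both arrays and −0.401 without a filter on background. With the spike-ins Muc5ac turned to 0.965 and Muc5b to 0.476. The median over all genes was 0.933 without scaling and 2.25 with the spike-ins. With quantile or loess normalization, the value table and median scaling, the 3 summary values moved by less than the technical SD of 0.0886. The faint probes of Muc13, Muc15 and the second probes of Muc4 and Muc20 lie where signal over background limits the precision, with a technical SD of 0.36.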

Other observations

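St6galnac1, the sialyltransferase that caps the first sugar of O-glycans, was the brightest gene of the O-glycosylation list and was measured by 2 probes that differed alike. The bright probe had processed signals of 23202 in Mob1DKO and 8112 in WT cells and a scaled difference of 0.61, and the faint one differed by 0.56. Bace2, a membrane protease related to the sheddases, was lower by both of its probes, at −0.63 and −0.76. The second of these probes was faint, with levels of −2.91 in Mob1DKO and −2.16 in WT cells, where the technical SD is 0.36. Both genes stayed under 2-fold. Bace2 was named after its values were seen.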
